A study of Mus musculus with 12 samples.

Results

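Dendritic cells take up antigen and present it to T cells, and they arise from bone marrow progenitors. The conventional lineage splits into cDC1, which depend on BATF3 and IRF8 and carry XCR1 and CLEC9A, and cDC2, which depend in part on IRF4. Plasmacytoid dendritic cells (pDC) are the interferon-producing branch, depend on TCF4 (E2-2) and carry Siglec-H and CCR9. A set of 9 genes that mark or direct these cells was read in RNA from the earliest blood-forming cells. They were chosen by name, with earlier results of these data known, as were the gene lists used below. Counts within the set and the lists are therefore not independent of these data. The set held Xcr1, Clec9a and Batf3 for cDC1, Itgax, Zbtb46 and Irf4 for dendritic cells more broadly, and Siglech, Ccr9 and Tcf4 for pDC. All 9 were among the 15366 genes of the deposited table.

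The material was poly(A) RNA from untreated C57BL/6 mice, taken from bone marrow LSK cells, the lineage-negative, Sca-1-positive, Kit-positive fraction that holds stem cells and multipotent progenitors. The 12 libraries form 4 groups of 3. The control carried Vav Cre, a recombinase driven by the Vav promoter, which is active across blood cells. KDM6B OE carried human KDM6B, a histone H3 lysine demethylase, from a Vav-driven transgene, and its label names no Cre. Tet2 KO carried Vav Cre with both Tet2 alleles floxed, and the double lesion carried the transgene, Vav Cre and floxed Tet2. TET2 oxidises methylcytosine in DNA. Vav acts in dendritic cells as well as in their progenitors, so neither lesion is confined to LSK cells. By Y-linked transcripts, Vav Cre replicate 1, Tet2 KO replicate 1 and double lesion replicates 1 and 3 were male. KDM6B OE held no male library, so sex was not balanced across the groups. The labels give neither the age of the mice nor whether replicate libraries are from different animals. P-values therefore measure the spread between these libraries, which may be technical in part.

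The libraries held 21935022 to 26263370 reads on the listed genes. Levels are given in CPM, the reads of a gene as the authors scaled them to a common library size. A count of 0 allowed up to 3 reads, or at most 0.139 CPM, and this limit covers counting error only. The 8 LSK markers summed to between 1929 and 3025 CPM. Tet2 read 24.1 to 37.2 CPM in the 6 floxed libraries and 64.9 to 97.1 CPM in the other 6. Mouse Kdm6b read 7.79 to 12.5 CPM in the 6 libraries with the transgene and 5.46 to 7.91 CPM in the other 6, so the 2 sets overlapped. The transgene is human, and how far its reads were counted on the mouse gene was not tested. Tet2 KO replicate 2 stood apart in plasma cell markers, as described with Irf4. Vav Cre replicate 2 stood apart in erythroid markers, which summed to 1586 CPM there and to at most 590 CPM in the others. How the counts over all genes depended on Vav Cre replicate 3 is given near the end.

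Differences are on the log2(CPM + 1) scale, given with the standard error (SE). They come from 1 limma fit of all 12 libraries over 13046 genes, and a gene passed where its Benjamini-Hochberg adjusted p was below 0.05. A filter on low values kept all 9 dendritic cell genes, with Batf3 at the edge of it, since it exceeded 1 CPM in 3 libraries.

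Xcr1 and Itgax rose in the double lesion against Vav Cre, and no other gene of the set passed in that comparison. Xcr1 also passed when the 6 floxed libraries were compared with the 6 others. In the double lesion against Vav Cre, 2 of the 9 genes passed, both higher, where 14.9% of all tested genes passed and 7.34% were higher. In the comparison by floxed Tet2, 1 of the 9 passed, where 0.207% of all tested genes did and 0.169% were higher. None of the 9 passed in either single lesion against Vav Cre. In KDM6B OE against Vav Cre 0.598% of all tested genes passed, and the smallest limma adjusted p in the set was 0.330. In Tet2 KO against Vav Cre 0.0307% passed, and the smallest was 0.249. These comparisons share the Vav Cre libraries. In bulk RNA, fewer cells of a type and less RNA per cell cannot be told apart, and the same holds for more cells and more RNA per cell.

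**Figure D1:**
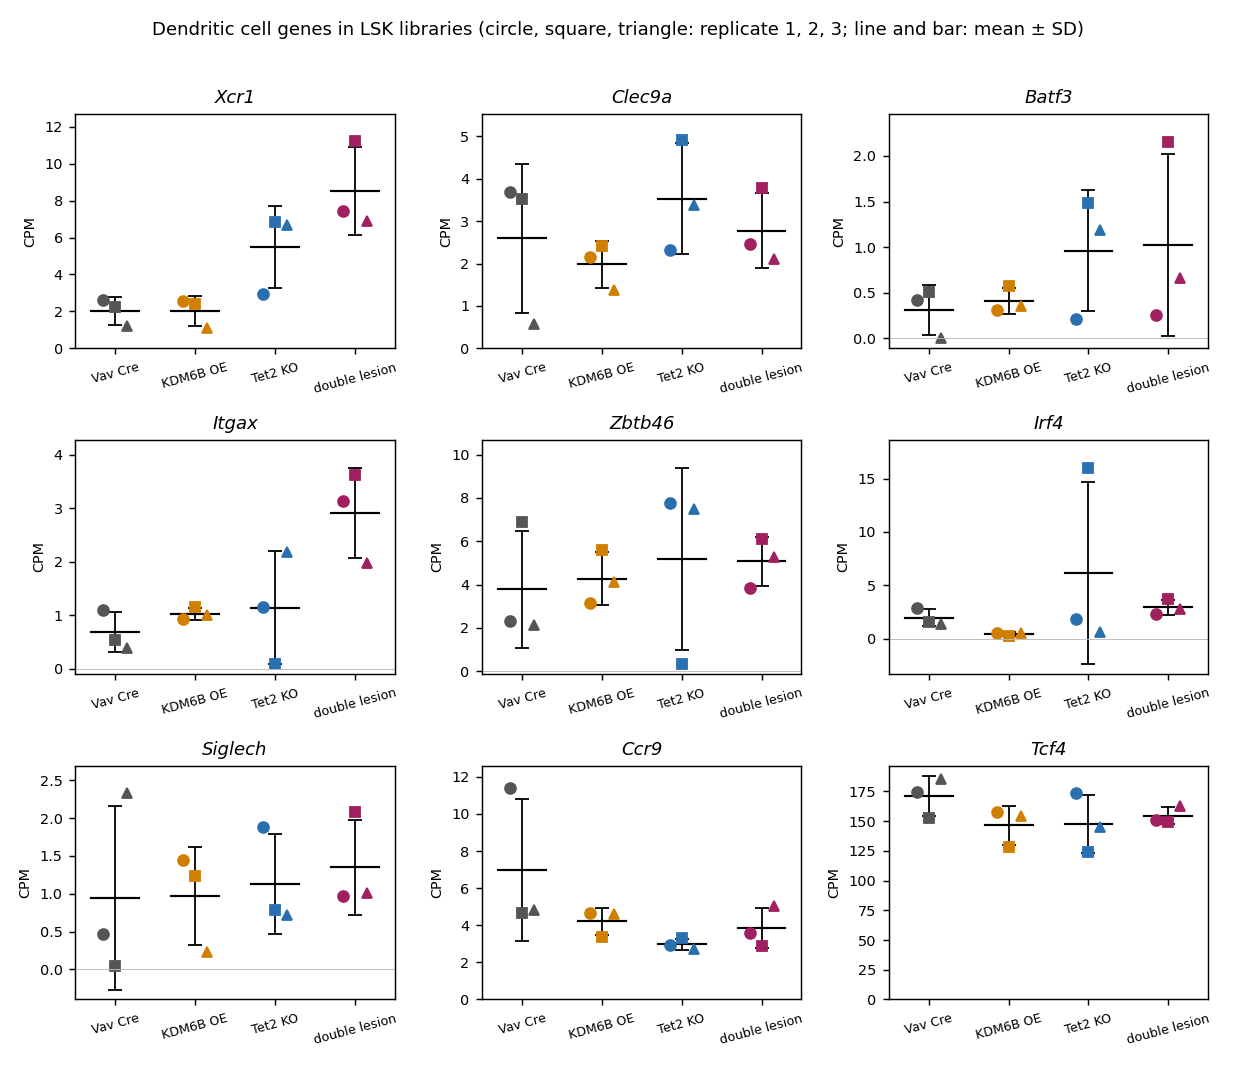
Level of each of the 9 dendritic cell genes in CPM (vertical axes, each on its own linear scale) in the 4 genotype groups, with 3 libraries per group as points and the mean ± SD as line and bar. Xcr1 and Itgax sit highest in the double lesion, Irf4 has 1 high library in Tet2 KO at 16.0 CPM, and Tcf4 lies between 124 and 186 CPM in every library.

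Xcr1 encodes the receptor for the chemokine XCL1 and marks cDC1. The gene lies on the minus strand of chromosome 9 (GRCm38, 123852315 to 123862029). The Vav Cre libraries read 2.63, 2.24 and 1.19 CPM, and those of KDM6B OE 2.55, 2.42 and 1.09 CPM. It read 2.92, 6.85 and 6.68 CPM in Tet2 KO and 7.42, 11.2 and 6.93 CPM in the double lesion. All 6 floxed libraries lay above all 6 others, with Tet2 KO replicate 1 only just above the highest of them, and the 2 unfloxed groups covered nearly the same range. The counts behind these values ran from 27 to 298 reads.

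Group means of Xcr1 were 2.02 ± 0.748 CPM in Vav Cre, 2.02 ± 0.807 in KDM6B OE, 5.48 ± 2.23 in Tet2 KO and 8.53 ± 2.37 in the double lesion (SD, n = 3 each). The double lesion mean was 4.22 times the Vav Cre mean, with a log2 difference of 1.66 ± 0.34 (SE; limma, adjusted p = 0.0103). That call was kept in each of the 12 fits that left out 1 library and in each of the 8 other settings tried. The Tet2 KO mean was 2.71 times that of Vav Cre with no overlap between the groups, as for 6.87% of all tested genes in that direction. This difference of 1.07 ± 0.34 on the log2 scale did not pass (limma, adjusted p = 0.249). KDM6B OE differed from Vav Cre by -0.01 ± 0.34 with a 95% interval from -0.73 to 0.71 (limma, adjusted p = 0.993), and the interval includes changes in either direction.

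Across the 6 floxed against the 6 other libraries, Xcr1 was 3.47 times higher, a log2 difference of 1.37 ± 0.24 (SE; limma, adjusted p = 0.0349). The 2 sets of 6 did not overlap, which held for 0.675% of all tested genes in either direction and 0.429% in this one. The call was near the threshold. It was lost on leaving out any KDM6B OE or double lesion library, or Tet2 KO replicate 2 or 3. The limma adjusted p in those fits was 0.0564 to 0.119. The difference itself was 1.24 to 1.53 over the 12 fits that left out 1 library. The call was also lost with edgeR's quasi-likelihood test on the recovered reads (adjusted p = 0.0589).

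Whether the transgene adds to floxed Tet2 was read from the double lesion against Tet2 KO. The interaction instead asked whether the double lesion departs from the sum of the log2 differences of both single lesions. An interaction near 0 therefore does not mean that the transgene adds nothing. Since the KDM6B OE label names no Cre, the transgene and the Cre cannot be told apart in KDM6B OE against Vav Cre. The differences by transgene and by floxed Tet2, the interaction and the double lesion against KDM6B OE use that group too. The double lesion against Vav Cre or Tet2 KO does not. Xcr1 was 1.56 times higher in the double lesion than in Tet2 KO, and the groups did not overlap, as for 10.8% of all tested genes in that direction. The log2 difference was 0.60 ± 0.34 (limma, adjusted p = 0.544), and 0.215% of all tested genes passed in that comparison. The interaction was 0.60 ± 0.47 with an interval from -0.42 to 1.62 (limma, adjusted p = 0.999), and limma passed 0% of all tested genes for it (DESeq2 passed 5 genes). At an unadjusted p under 0.05 it held 578 genes, 4.43% of all tested, and none of the 9. Without Tet2 KO replicate 1, the low library of its group, the Xcr1 difference from Tet2 KO and the Xcr1 interaction were both 0.27.

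The double lesion against KDM6B OE gave an Xcr1 difference of 1.67 ± 0.34 on the log2 scale, as large as against Vav Cre. In that comparison limma passed 0% of all tested genes. At an unadjusted p under 0.05 it held 771 genes, 5.91% of all tested, and 3 of the 9 (Xcr1, Itgax and Irf4). The adjusted p of Xcr1 was 0.284 in limma, 0.0248 when only these 2 groups were fitted and 0.0079 in DESeq2. DESeq2 on the recovered reads passed 20 genes there. The groups did not overlap for Xcr1, Itgax and Irf4, 3 of the 9 and all higher, against 8.98% of all tested genes in that direction.

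The promoters of the genes that passed are shown because they differ in the motifs they hold. Both are the 250 bases before the start site in RefSeq on GRCm38.p6, 5′ to 3′ on the gene's own strand, at chr9:123862030-123862279 (minus) for Xcr1 and chr7:128129300-128129549 (plus) for Itgax. Capitals mark matches, on either strand, to TGANTCA, the site of BATF and other AP-1 dimers, or to CANNTG, the general E-box pattern. TCF4 binds E-boxes, but this pattern does not tell its sites from those of other E-box factors.
Xcr1: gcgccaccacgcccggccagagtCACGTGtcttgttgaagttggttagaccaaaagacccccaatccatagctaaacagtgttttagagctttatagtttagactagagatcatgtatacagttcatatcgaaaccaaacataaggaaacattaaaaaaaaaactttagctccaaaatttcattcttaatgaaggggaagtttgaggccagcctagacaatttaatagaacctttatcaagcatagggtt
Itgax: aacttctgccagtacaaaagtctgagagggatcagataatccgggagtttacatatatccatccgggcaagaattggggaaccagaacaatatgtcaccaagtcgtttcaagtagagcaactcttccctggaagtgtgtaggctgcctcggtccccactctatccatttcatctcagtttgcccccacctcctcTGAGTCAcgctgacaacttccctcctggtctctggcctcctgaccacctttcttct
The Xcr1 window held 1 E-box and no TGANTCA, and the Itgax window 1 TGANTCA and no E-box. Of 32851 RefSeq promoter windows of this length, 6.75% held TGANTCA and 66.2% held CANNTG. A RefSeq window was found for 8 of the 9 genes, all but Tcf4. TGANTCA was in 2 of these 8 (Itgax and Zbtb46) and CANNTG in 6, and the windows of Batf3, Zbtb46 and Ccr9 lay inside longer annotated gene models. The ETS motif AGGAAGT was in none of the 8, against 7.69% of all windows. The motifs can overlap each other, and a match is a run of letters, not a bound site.

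Itgax encodes CD11c, the integrin chain used to sort dendritic cells, which macrophages and natural killer cells also carry. It lies on chromosome 7 (128129547 to 128150657, plus strand). It read 1.10, 0.55 and 0.40 CPM in Vav Cre, 0.92, 1.15 and 1.01 in KDM6B OE, 1.16, 0.09 and 2.19 CPM in Tet2 KO, and 3.13, 3.62 and 1.98 CPM in the double lesion. The 3 double lesion libraries lay above all Vav Cre and KDM6B OE libraries (Xcr1 and Itgax were the 2 of the 9 that did so against Vav Cre, where 16.4% of all tested genes did), while Tet2 KO replicate 3 reached into their range and Tet2 KO replicate 2 held only 2 reads.

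The double lesion mean of Itgax was 2.91 ± 0.841 CPM against 0.683 ± 0.373 in Vav Cre (SD, n = 3 each), 4.27 times higher. The log2 difference was 1.22 ± 0.35 (SE; limma, adjusted p = 0.0376). This call was near the threshold: the adjusted p was 0.0633 with a pseudocount of 0.25, 0.0655 with only these groups fitted, 0.0613 with a term for sex and 0.0895 in edgeR. It was also lost on leaving out Vav Cre replicate 2 or 3, or any KDM6B OE or double lesion library, with adjusted p from 0.0519 to 0.132.

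Neither single lesion moved Itgax past the threshold. KDM6B OE differed from Vav Cre by 0.29 ± 0.35 on the log2 scale (limma, adjusted p = 0.670) and Tet2 KO by 0.24 ± 0.35 (limma, adjusted p = 0.797). The double lesion exceeded KDM6B OE by 0.93 and Tet2 KO by 0.97 on the log2 scale (limma, adjusted p = 0.704 and 0.381). The interaction of 0.68 ± 0.50 did not pass (limma, adjusted p = 0.999), and it was 0.26 without Tet2 KO replicate 2. Over the 6 libraries with the transgene against the 6 without, the difference was 0.63 ± 0.25 (limma, adjusted p = 0.128), where 4.35% of all tested genes passed and 0 of the 9 did.

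**Figure D2:**
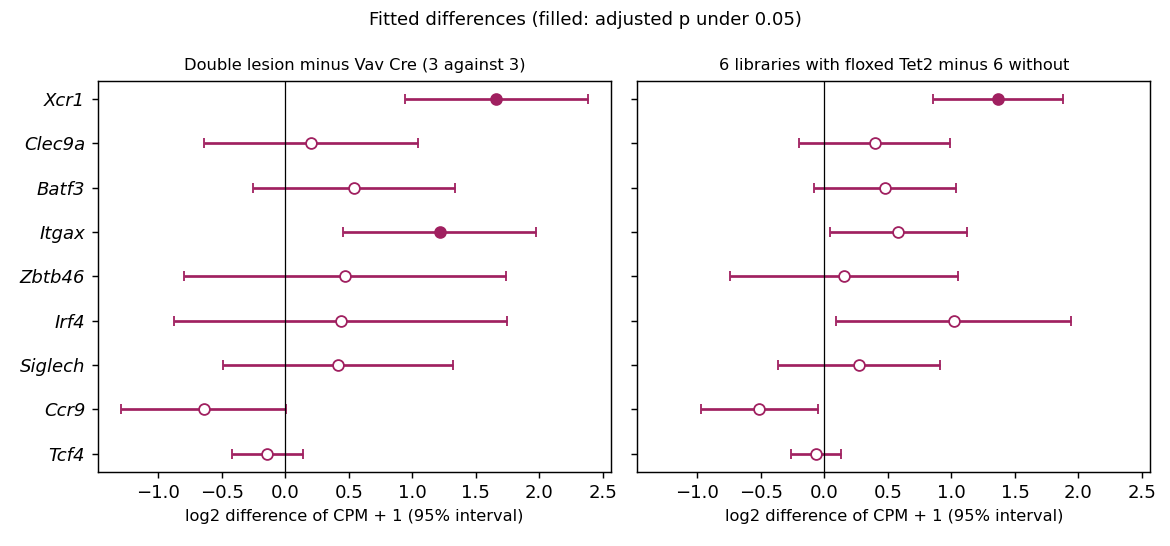
Fitted log2 difference of CPM + 1 with its 95% interval (horizontal axes) for the 9 genes, in the double lesion against Vav Cre (left) and in the 6 floxed against the 6 other libraries (right). Filled points passed at an adjusted p under 0.05: Xcr1 (1.66) and Itgax (1.22) on the left and Xcr1 (1.37) on the right.

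Clec9a and Batf3, the other cDC1 genes of the set, did not pass with Xcr1. Clec9a, a receptor for actin exposed on dead cells, read 3.69, 3.52 and 0.57 CPM in Vav Cre, 2.16, 2.42 and 1.37 in KDM6B OE, 2.32, 4.91 and 3.38 in Tet2 KO and 2.46, 3.77 and 2.10 in the double lesion. All 4 groups overlapped, and Vav Cre replicate 3 was the lowest library. Its log2 difference in the double lesion was 0.21 (limma, adjusted p = 0.751; interval -0.64 to 1.05), and it became -0.31 without Vav Cre replicate 3. Some exon bases of Clec9a are shared with Clec1b on the same strand, whose own level was 0.517 to 3.20 CPM, so its value is uncertain.

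Batf3, the transcription factor that cDC1 need, was the gene with the lowest mean, with 0 to 57 reads per library. It read 0.42, 0.50 and 0 CPM in Vav Cre, 0.31, 0.57 and 0.35 in KDM6B OE, 0.21, 1.48 and 1.19 in Tet2 KO and 0.26, 2.15 and 0.66 in the double lesion. Its 4 highest libraries were all floxed, but replicate 1 of both floxed groups lay among the others. The 3 libraries through which it passed the filter on low values were all floxed. A difference by floxed Tet2 was therefore partly built in. Neither the double lesion (0.54 on the log2 scale; limma, adjusted p = 0.333) nor the floxed comparison (0.48; limma, adjusted p = 0.413) passed.

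Across the 12 libraries the Pearson correlation of log2(CPM + 1) was 0.75 between Xcr1 and Batf3, 0.73 between Clec9a and Batf3 and 0.62 between Xcr1 and Clec9a. These are descriptions over 12 libraries that share the genotype groups, and Batf3 rests on few reads. The 3 tested genes whose pattern was most like that of Xcr1 were Pld4 (r = 0.960), Gm4841 (0.943) and Naaa (0.941). Pld4 encodes an endolysosomal exonuclease abundant in dendritic cells, and Naaa an acid amidase typical of cDC1. Pld4 read 19.8, 20.4 and 10.1 CPM in Vav Cre against 32.4, 44.6 and 29.8 CPM in the double lesion, and 20.1, 40.8 and 36.5 CPM in Tet2 KO. These genes were picked for following Xcr1 over the same libraries, so their pattern is a description and adds no support to that of Xcr1.

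Of a list of 14 further cDC1 genes that could be tested, 3 rose in the double lesion against Vav Cre and 0 fell, where 7.34% of all tested genes rose and 7.58% fell. The median log2 difference of the 14 was 0.41, against 0.05 over all tested genes. Medians of the marker lists of other cell types, given below, ran from -0.19 to 1.35 in this comparison. The 3 were Snx22, a sorting nexin (1.65 ± 0.24; limma, adjusted p = 0.0033), Naaa (1.23 ± 0.38; 0.0451) and Cadm1, an adhesion molecule of cDC1 (1.07 ± 0.33; 0.0434). Snx22 was low, at 0.224 ± 0.169 CPM in Vav Cre and 2.83 ± 0.437 in the double lesion (SD, n = 3 each). It was the single gene of the 14 to pass in the comparison by floxed Tet2 (0.96 ± 0.17; limma, adjusted p = 0.0399), and it also passed by transgene (0.69; 0.0445). The Snx22 call against Vav Cre was kept in all 12 fits that left out 1 library, those of Naaa and Cadm1 in 5 and 2 of the 12 (adjusted p up to 0.129 and 0.155), and those of Snx22 by floxed Tet2 and by transgene in 2 and 1. Irf8, which drives cDC1 and monocyte fate, read 134 ± 31.9 CPM in Vav Cre and 161 ± 52.7 in the double lesion and did not pass.

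**Figure D3:**
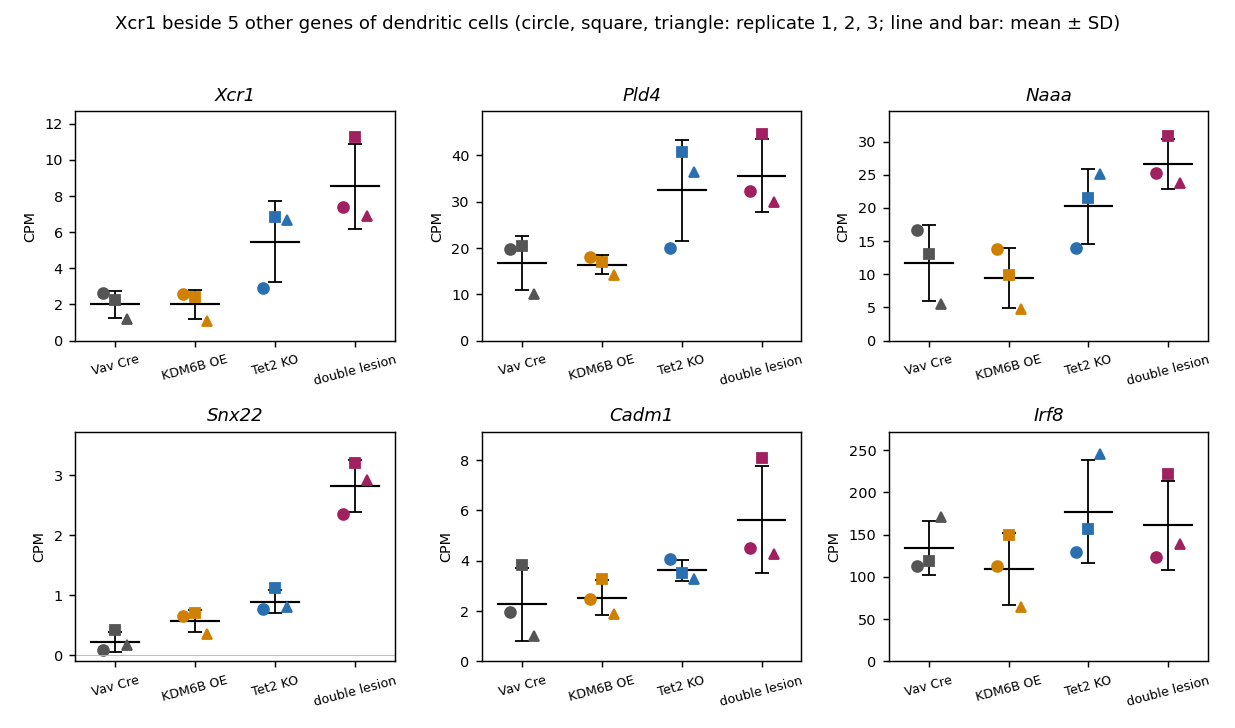
Level in CPM (vertical axes, linear) of Xcr1 and 5 other dendritic cell genes in the 4 groups, with 3 libraries per group as points and the mean ± SD. Pld4 and Naaa were picked for their likeness to Xcr1 over these libraries, Snx22 is highest in the double lesion (2.83 CPM), and Irf8 overlaps in all groups.

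Zbtb46 encodes a transcription factor restricted, among immune cells, to conventional dendritic cells and their committed precursors, and is also expressed in erythroid progenitors. It read 2.29, 6.91 and 2.11 CPM in Vav Cre, 3.13, 5.57 and 4.10 in KDM6B OE, 7.76, 0.32 and 7.48 in Tet2 KO and 3.84, 6.11 and 5.25 in the double lesion. The widest spread was within Tet2 KO, whose libraries included the highest and the lowest of all 12. Vav Cre replicate 2, the highest of its group, was also the library that stood apart in erythroid markers (1586 CPM), and a link was not tested. The double lesion difference was 0.47 ± 0.59 on the log2 scale (limma, adjusted p = 0.617). Over the 12 fits that left out 1 library it was 0.23 to 0.91 and never passed. By floxed Tet2 it was 0.15 (limma, adjusted p = 0.890), and it changed sign on leaving out Tet2 KO replicate 1 or 3 (-0.08 and -0.07).

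Irf4 encodes a transcription factor used by cDC2 and, at high level, by plasma cells. The gene lies on chromosome 13 (30749226 to 30766976, plus strand). It read 2.89, 1.56 and 1.41 CPM in Vav Cre, 0.48, 0.25 and 0.55 in KDM6B OE, 1.84, 16.0 and 0.64 in Tet2 KO and 2.31, 3.70 and 2.80 in the double lesion. The 3 KDM6B OE libraries were the 3 lowest of the 12 and did not overlap Vav Cre, as for 10.9% of all tested genes in that direction. The difference of -1.02 ± 0.61 on the log2 scale did not pass (limma, adjusted p = 0.344).

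In the double lesion, Irf4 was at 2.94 ± 0.703 CPM, against 0.425 ± 0.159 in KDM6B OE and 1.95 ± 0.815 in Vav Cre (SD, n = 3 each). Its log2 difference was 0.44 from Vav Cre (limma, adjusted p = 0.657) and 1.46 ± 0.61 from KDM6B OE (0.777). The latter had an adjusted p of 0.037 when only those 2 groups were fitted. By floxed Tet2 the difference was 1.02 ± 0.43 (limma, adjusted p = 0.300; DESeq2, 0.0154). By transgene it was -0.58 (limma, adjusted p = 0.410), and DESeq2 passed it at -1.66 (0.0439).

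The high Irf4 library, Tet2 KO replicate 2, was also the highest in plasma cell markers. The summed level of Sdc1, Jchain, Xbp1 and Prdm1 was 8107 CPM there and 486 to 1863 CPM in the other 11 libraries, with Jchain, the joining chain of IgA and IgM, at 7522 CPM. The B cell markers summed to 183 CPM in that library and to at most 115 in the others. Zbtb46 (0.32 CPM) and Itgax (0.09 CPM) were at their lowest in it. Between Irf4 and the plasma cell sum, on the log scale, r was 0.77 over 12 libraries and 0.27 over the 11 without this one. Without it, the Tet2 KO difference of Irf4 went from 0.58 to -0.42, the floxed difference from 1.02 to 0.52 and the transgene difference from -0.58 to -0.08 (limma, adjusted p = 0.859). The DESeq2 calls of Irf4 were not refitted without it. The part of plasma cell RNA in these values was not tested. The genes most like Irf4 over the 12 libraries were Lrrc36 (r = 0.941), Cd52 (0.935) and Slamf7 (0.925). Slamf7 encodes a receptor abundant on plasma cells.

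**Figure D4:**
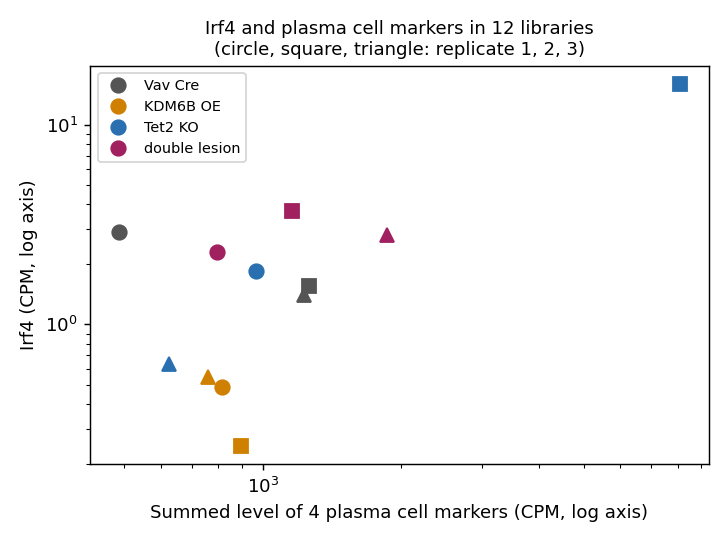
Irf4 level (vertical axis, CPM, log scale) against the summed level of 4 plasma cell markers (horizontal axis, CPM, log scale) in the 12 libraries, coloured by group with the symbol giving the replicate. Tet2 KO replicate 2 lies alone at 8107 and 16.0 CPM, and the 3 KDM6B OE libraries are the lowest in Irf4.

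Of 12 tested genes of a cDC2 list, 2 rose in the double lesion against Vav Cre and 0 fell, where 7.34% of all tested genes rose and 7.58% fell. The median log2 difference was 0.34, against 0.05 over all tested genes. These were Klf4, a transcription factor of cDC2 and monocytes (2.27 ± 0.49; limma, adjusted p = 0.0134), and Clec4a2, a C-type lectin (1.30 ± 0.29; 0.0159). Klf4 was high in both groups with the transgene, at 7.15 ± 5.54 CPM in KDM6B OE and 6.92 ± 3.67 in the double lesion, against 0.502 ± 0.185 in Vav Cre (SD, n = 3 each). It passed by transgene (2.01 ± 0.34; limma, adjusted p = 0.0098) and had an adjusted p of 0.0556 in KDM6B OE against Vav Cre. On leaving out 1 library in turn the Klf4 calls were kept in 12 of 12 fits, and that of Clec4a2 was lost without double lesion replicate 2 or 3 (adjusted p up to 0.0559).

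The pDC genes of the set did not pass in any comparison. Siglech, the surface lectin of mouse pDC, read 0.47, 0.05 and 2.33 CPM in Vav Cre, 1.45, 1.23 and 0.23 in KDM6B OE, 1.89, 0.79 and 0.72 in Tet2 KO and 0.97, 2.08 and 1.01 in the double lesion. Vav Cre alone held both the lowest and the highest library, so the groups could not be separated at this depth of 1 to 55 reads. The double lesion differed by 0.42 ± 0.42 on the log2 scale (limma, adjusted p = 0.523), with an interval from -0.49 to 1.32. Without Vav Cre replicate 2 this difference was 0.06, and without replicate 3 it was 0.89. Its RefSeq promoter (GRCm38.p6, chr7:55767934-55768183, plus strand) is shown because TCF4, the E-box factor of pDC, is in the set. It held 3 matches to the general E-box pattern, marked in capitals, while the Zbtb46 window held 5 and 66.2% of all windows held at least 1.
Siglech: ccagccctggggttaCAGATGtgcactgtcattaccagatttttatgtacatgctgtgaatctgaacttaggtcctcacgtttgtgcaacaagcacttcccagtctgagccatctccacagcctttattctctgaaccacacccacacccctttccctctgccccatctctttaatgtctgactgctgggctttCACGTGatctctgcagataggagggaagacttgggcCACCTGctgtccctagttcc

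Ccr9, a chemokine receptor of pDC and of early T cell progenitors, was the one gene of the set besides Tcf4 with its highest mean in Vav Cre. It read 11.4, 4.67 and 4.83 CPM there, 4.67, 3.36 and 4.60 in KDM6B OE, 2.92, 3.29 and 2.70 in Tet2 KO and 3.58, 2.91 and 5.02 in the double lesion. The 3 Tet2 KO libraries lay below all Vav Cre libraries, as for 5.70% of all tested genes in that direction. Vav Cre replicate 1 stood far above the other 11 libraries.

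The Tet2 KO difference of Ccr9 was -0.91 ± 0.30 on the log2 scale and did not pass (limma, adjusted p = 0.258). The KDM6B OE difference was -0.52 (0.330), that of the double lesion -0.64 (0.161) and that by floxed Tet2 -0.51 ± 0.21 (0.294), all from limma with adjusted p in parentheses. Without Vav Cre replicate 1 these 4 differences were -0.54 for Tet2 KO, -0.15 for KDM6B OE, -0.27 for the double lesion and -0.33 by floxed Tet2. Ccr9 lies on chromosome 9 (123678439 to 123784330), 67984 bases from Xcr1, whose difference by floxed Tet2 had the opposite sign. Ccr9 exons share bases with Slc6a20a and AC165425.1 on the opposite strand and Gm17200 on the same one. The library kit marks no strand and the strand setting of the counting is not stated, so the Ccr9 level is uncertain. Slc6a20a itself read 0 to 1.14 CPM, with 0.04 CPM in Vav Cre replicate 1.

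Tcf4, the E protein that commits cells to pDC and that LSK cells also express, was by far the most abundant gene of the set. It read 174, 152 and 186 CPM in Vav Cre, 157, 128 and 154 in KDM6B OE, 174, 124 and 145 in Tet2 KO and 151, 149 and 163 in the double lesion. Every group overlapped every other, and the double lesion differed by -0.14 ± 0.13 on the log2 scale (limma, adjusted p = 0.483). The interval, from -0.42 to 0.14, is the narrowest of the 9. The KDM6B OE difference was -0.22 (limma, adjusted p = 0.337).

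Per kilobase of annotated exons, Tcf4 stood at 6.24 ± 0.615 CPM in Vav Cre, above every other gene of the set in every library. In that group Clec9a followed at 0.788 ± 0.533, then Ccr9 at 0.678 ± 0.373, Xcr1 at 0.454 ± 0.168, Zbtb46 at 0.443 ± 0.320, Irf4 at 0.398 ± 0.166, Siglech at 0.280 ± 0.359, Batf3 at 0.194 ± 0.170 and Itgax at 0.142 ± 0.0776 (SD, n = 3). Neighbours in this order differed by less than their spread, apart from Tcf4. In the double lesion Xcr1 came second, at 1.92 ± 0.531 CPM per kilobase, and Clec9a next, at 0.844 ± 0.267.

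Of 17 tested genes of a wider pDC list, 3 rose and 1 fell in the double lesion against Vav Cre, where 7.34% of all tested genes rose and 7.58% fell. The median log2 difference was 0.19, against 0.05 over all tested genes. Lag3, an inhibitory receptor found on pDC and T cells, rose by 1.22 ± 0.27 on the log2 scale (limma, adjusted p = 0.0155). Spib, an ETS factor of pDC and B cells, had 0 reads in all 3 Vav Cre libraries and read 1.01, 1.09 and 1.48 CPM in the double lesion (limma, adjusted p = 0.0166). Set against 3 reads per Vav Cre library, it was at least 8.70-fold higher. It passed the filter on low values only through the double lesion, so that a difference was built in, and the count of 3 includes it. Dntt, the terminal transferase of lymphoid progenitors, fell by 0.88 ± 0.27 (limma, adjusted p = 0.0459), from 854 ± 258 to 449 ± 29.1 CPM (SD, n = 3 each). Cbfa2t3, a co-repressor that binds E proteins, also rose (0.85 ± 0.12; limma, adjusted p = 0.0031), and it was the single gene of the list to pass in KDM6B OE (0.77 ± 0.12; 0.0095). By transgene, Cox6a2, a respiratory chain subunit typical of pDC, fell by 0.91 (limma, adjusted p = 0.0411). On leaving out 1 library in turn, the double lesion calls were kept in 12 of 12 fits for Cbfa2t3, 9 for Lag3, 8 of the 9 that tested it for Spib and 3 for Dntt (adjusted p up to 0.125), and the Cox6a2 call in 2. The KDM6B OE call of Cbfa2t3 was lost without KDM6B OE replicate 1 or 2 (up to 0.0846).

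Partners of these transcription factors were read as well. BATF proteins act as dimers with JUN proteins, and TCF4 acts with other E proteins and is held back by ID proteins. Of 10 such genes, 3 rose in the double lesion and 0 fell, where 7.34% of all tested genes rose and 7.58% fell: Jund (2.34 ± 0.40; limma, adjusted p = 0.0055), Jun (1.88 ± 0.29; 0.0041) and Junb (1.78 ± 0.20; 0.00081). The same 3 rose in KDM6B OE against Vav Cre, where 0.521% of all tested genes rose, Jund by 2.16 (limma, adjusted p = 0.0292), Junb by 1.88 (0.0012) and Jun by 1.57 (0.0315). Junb read 76.6 ± 25.9 CPM in Vav Cre, 272 ± 11.6 in KDM6B OE, 94.4 ± 13.7 in Tet2 KO and 254 ± 12.9 in the double lesion (SD, n = 3 each). The double lesion calls were kept in 12 of 12 fits that left out 1 library. In KDM6B OE that of Junb was kept in 12, Jund in 6 and Jun in 5 (adjusted p up to 0.174).

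Of 16 genes of dendritic cell development, growth factor receptors and lineage regulators, 1 rose in the double lesion: Stat3, the signal transducer downstream of FLT3 (0.77 ± 0.13; limma, adjusted p = 0.0055). The median of the 16 was 0.48, against 0.05 over all tested genes, and 1 of 16 is close to the 7.34% of all tested genes that rose. Of 8 tested genes of dendritic cell maturation, 2 rose and 1 fell, where 7.58% of all tested genes fell. Cd83, an activation marker of dendritic cells and B cells, rose by 1.92 ± 0.49 (limma, adjusted p = 0.0242), Cd274, which encodes PD-L1, by 0.69 ± 0.17 (0.0188), and Socs2, a suppressor of cytokine signalling, fell by 1.18 ± 0.20 (0.0056). Leaving out 1 library in turn kept the calls of Stat3 and Socs2 in 12 of 12 fits, of Cd274 in 9 and of Cd83 in 8 (adjusted p up to 0.0908).

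Markers of other cell types moved in the same comparison. Of the 11 monocyte and macrophage markers tested, 5 rose in the double lesion against Vav Cre (C1qa, C1qb and C1qc, chains of a complement component, among them). Of 8 neutrophil markers 3 rose (S100a8, S100a9 and Ngp), of 7 B cell markers 2 (Igll1 among them), of 8 LSK markers 1 (Hlf), and none of the 4 T and NK cell, 4 erythroid or 4 plasma cell markers tested passed, where 7.34% of all tested genes rose. The monocyte and macrophage markers summed to 74.8 to 189 CPM in Vav Cre and 176 to 273 CPM in the double lesion, with KDM6B OE at 116 to 156 and Tet2 KO at 87.8 to 214. The B cell markers summed to 82.6 to 90.6 CPM in Vav Cre and 81.8 to 115 in the double lesion. Cd79b alone read 56.6 to 110 CPM over the 12 libraries, so these sums say little about the other B cell markers. Pax5, which defines the lineage, was at 0 in 9 of the 12 libraries. Csf1r, Ccr2, Ly6c2, Flt3 and Kit stand on both a marker list and a dendritic cell list. The part of such cells in the Xcr1 and Itgax differences was not tested.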

How the data were processed

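Poly(A) RNA of 12 libraries was made with a SMARTer and Nextera kit pair, per the labels, which marks no strand. Per the submitters' processing notes, TopHat2 2.0.10, HTSeq 0.6.0, edgeR 3.8.6 and mm10 were used; the sources used here do not give the annotation or strand setting. The authors deposited a signal per gene equal to reads over an effective library size, that is, CPM. All values (100% within 1e-06) gave back whole counts when the deposited values were divided by what 1 read was worth (0.0373 to 0.0463 CPM). The deposited table held no gene under 10 reads over the 12 libraries.

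The test was limma 3.58.1 (R 4.3.3) on log2(CPM + 1) with a mean trend, 1 mean per group, 8 residual degrees of freedom and 95% intervals. It covered genes above 1 CPM in at least 3 libraries (13046 tested, 2320 left out) and was checked on simulated data. Alternatives were a pseudocount of 0.25, no filter, only the groups compared, a replicate block, rescaling to equal totals, edgeR 4.0.16, DESeq2 1.42.0, a sex term (Y-linked transcripts above 10 CPM, 4 male libraries) and leaving out each library. Member coordinates are GENCODE's on GRCm38, promoters RefSeq's. Genes named besides the 9 are those that passed, at most 3 per list and comparison by size, and the 3 most correlated with a member, with Cbfa2t3, Irf8 and marker genes added after their values were seen. The 9 genes and all lists were chosen with earlier results of these data known.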

Additional observations from a re-analysis of the deposited data

How the results depend on the processing

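Of 777 alternatives for single genes of the set, 741 kept direction and side of the threshold. The sign changed, among values that did not pass, for Xcr1 in KDM6B OE against Vav Cre (0.024 after rescaling to equal totals; -0.22 to 0.24 on leaving out a library), and on leaving out a library for Itgax (-0.11 to 0.66), Irf4 (-0.42 to 1.27) and Clec9a (-0.063 to 0.73) in Tet2 KO against Vav Cre, Clec9a in the double lesion (-0.31 to 0.48) and Zbtb46 by floxed Tet2 (-0.078 to 0.60). Among 32 values not given here, 612 alternatives changed 55 signs and gained 0 calls. The 25 calls of genes outside the set changed sign in no alternative.

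Of the 9 genes, the double lesion against Vav Cre passed 1 with a pseudocount of 0.25, with only the groups compared, with edgeR or with a sex term, and 1 to 2 on leaving out a library. Against KDM6B OE, 2 passed with only the groups compared and 1 with DESeq2. By transgene, DESeq2 passed 1. By floxed Tet2, edgeR passed 0, DESeq2 2, and leaving out a library 0 to 1.

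Counts over all genes moved further. With only the groups compared they were 22 (KDM6B OE), 0 (Tet2 KO) and 289 (double lesion) against Vav Cre, 61 for the double lesion against KDM6B OE and 53 against Tet2 KO. With DESeq2 the 2 single lesions gave 737 and 160, the double lesion 20 against KDM6B OE and 143 against Tet2 KO, the interaction 5, the transgene 1624 and floxed Tet2 360. EdgeR gave 15 by floxed Tet2. With a sex term KDM6B OE gave 162 and the double lesion against Tet2 KO 18. On leaving out a library, counts ran from 22 to 1936 for KDM6B OE, 1 to 305 for Tet2 KO, 300 to 3589 for the double lesion, 0 to 5 against KDM6B OE, 9 to 55 against Tet2 KO, 94 to 2777 by transgene and 2 to 284 by floxed Tet2. All these upper ends came from the fit without Vav Cre replicate 3, apart from the 5 against KDM6B OE. The cause was not tested.

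The main fit did not pair replicate numbers across groups. Of 18 same-number pairs of libraries, 10 correlated above 0.1 (r from -0.15 to 0.39), with a median r of 0.14. The median r of the other pairs was -0.04, and 8 of 12 libraries correlated best with their own number. Whether the numbers mark a shared factor was not tested. A replicate block changed no call among the 9 and gave 284 genes for KDM6B OE, 1 for Tet2 KO, 3 for the double lesion against KDM6B OE, 1516 by transgene and 97 by floxed Tet2. The main fit gave 78, 4, 0, 568 and 27 in the same order. Depth limits Batf3, Siglech, Itgax, Irf4 and Zbtb46, which had under 10 reads in at least 1 library.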

Other observations

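Among maturation genes below the filter, Il12b, which encodes the p40 chain of interleukin 12, had 0 reads in the 9 libraries outside the double lesion and read 0.37, 0.57 and 0.66 CPM in its 3 libraries. The limit that a count of 0 allows was at most 0.139 CPM. Ccl22 and Cd80, also maturation genes below the filter, did not share this pattern. Ccl22 read 0, 0.26 and 0.47 CPM in the double lesion and 0.28 CPM in Tet2 KO replicate 3. Cd80 read 0.67, 0 and 0.12 CPM in the double lesion and 0.59 CPM in Vav Cre replicate 1. Il12b was picked after its values were seen and was not tested.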
